A study of Mus musculus with 6 samples.

Results

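The 10 genes described here are widely used readouts of glucocorticoid action: Fkbp5, Zbtb16, Tsc22d3, Sgk1, Klf9, Klf15, Errfi1, Cebpd, Mt1 and Mt2. They were taken by name from a table of 17447 gene symbols, and all 10 were found in it. Total RNA of wild-type mouse hearts was sequenced in 6 samples, of which 3 followed a sham operation and 3 followed subtotal nephrectomy, a model of chronic kidney disease (CKD). Only the 3 sham samples could be read by gene, for the reason given below, and they are called sham 1, sham 2 and sham 3. A sham mouse was anaesthetized with ketamine and xylazine and had its abdomen opened and its kidneys exposed, with no kidney tissue removed. The sources used here do not give strain, age, time after surgery or time of day at collection. All 6 samples carry 1 batch label, and nothing beyond the replicate numbers says that they are separate animals.

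Glucocorticoids, corticosterone in the mouse, are released by the adrenal cortex in a daily rhythm and under stress. They bind the glucocorticoid receptor, which is held by heat shock protein chaperones in the cytosol and on binding moves to the nucleus, where it acts at DNA sites called glucocorticoid response elements. Cardiomyocytes, fibroblasts and endothelial cells of the heart all carry the receptor. Several of the 10 genes also respond to other signals: Sgk1 to mineralocorticoids and serum, Errfi1 to growth factors, Cebpd to cytokines, and the metallothioneins Mt1 and Mt2 to zinc and other metals. The question put to the data was whether the 10 genes go up and down together from one sham heart to another.

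The row labels were checked first. Over all rows, Spearman's rho lay between 0.982 and 0.985 within sham and between 0.984 and 0.987 within CKD, with 3 pairs each. Across the groups, rho was -0.0586 to -0.0528 in 9 pairs. These values run over genes, and genes are no independent replicates. The 10 ventricular cardiomyocyte markers stood at a median percentile of 100 among sham rows and 29.7 among CKD rows, and 4 of the 10, Myh6, Myl2, Myl3 and Mb, held 0 or 1 count in every CKD column. Among the 10 genes, the row named Zbtb16 was at 0 in every CKD column against 389, 1173 and 1146 counts in the sham hearts. The row named Klf15 read 3579, 3540 and 3977 in CKD against 754, 747 and 578. Such values under cardiac labels show that the CKD rows do not carry the genes they name, so no CKD value is read here as a gene level. The sham totals were 10480788, 10474487 and 12669724 counts, and levels are given in CPM, the count divided by the total of its column times 1000000. In the sham hearts the label of heart tissue fitted the values, with the ventricular markers at 12.5%, 13.8% and 12.4% of all counts. Other cell types did differ between these hearts, and their values are set beside the results they move with.

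With 3 samples of 1 group there is no test of covariation, and a correlation would need at least 6 samples, so none is given. The hearts are compared by value, by their order for each gene and by the ratio of the highest to the lowest heart. Each ratio has a 95% interval for counting error only, which treats reads as independent. Reads without molecular identifiers are not independent molecules, so these intervals can be too narrow. For the highest and the lowest heart, the 2 hearts were picked by their values, and the interval does not allow for that. A gene is counted as differing between hearts where that ratio reaches 1.5. The share of genes with a sham mean of at least 10 CPM that pass, of which there were 8864, serves as the background. Of the 10 genes, 9 reached that mean, and Mt2 at 9.18 CPM lay just under it. In a bulk sample, fewer cells of a type and less RNA per cell cannot be told apart.

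The 10 genes did not share 1 pattern. The highest heart was at least 1.5 times the lowest for 6 of them, Sgk1, Errfi1, Zbtb16, Cebpd, Tsc22d3 and Klf15, against 13.1% of all genes. Without sham 1 the number that passed was 2, Sgk1 and Klf15. No share of all genes is given for 2 hearts, and a ratio over 2 hearts cannot exceed that over 3. In 3 genes, Sgk1, Errfi1 and Cebpd, sham 1 was at least 2 times both other hearts, as it was in 0.429% of all genes, while in Zbtb16 sham 1 was at most 1 part in 2 of both others, as in 0.113%. These 2-fold limits were set after the values were seen. The filter behind both shares is on the mean of the 3 hearts, so a gene can pass it through its high hearts alone. The highest heart was at least 2 times the lowest in 4 genes, those same 3 and Zbtb16, against 4.24% of all genes, and at least 3 times in 3, Sgk1, Errfi1 and Zbtb16, against 2.02%. The remaining 6 genes lay within a ratio of 1.63. Ratios depend on level, and the share past 1.5 was 19.2% at 10 to 30 CPM, where Fkbp5 and Cebpd lie, 9.81% at 30 to 100 CPM, where Zbtb16, Tsc22d3, Klf15, Errfi1 and Mt1 lie, and 7.53% at 100 to 300 CPM, where Sgk1 and Klf9 lie. None of the 10 was highest in sham 3, the heart that was highest for 39.6% of all genes, and 7 were lowest there, against 26.2%. Sham 2 was lowest for 2 of the 10, against 45.6%, and sham 1 for 1, against 28.2%.

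**Figure D1:**
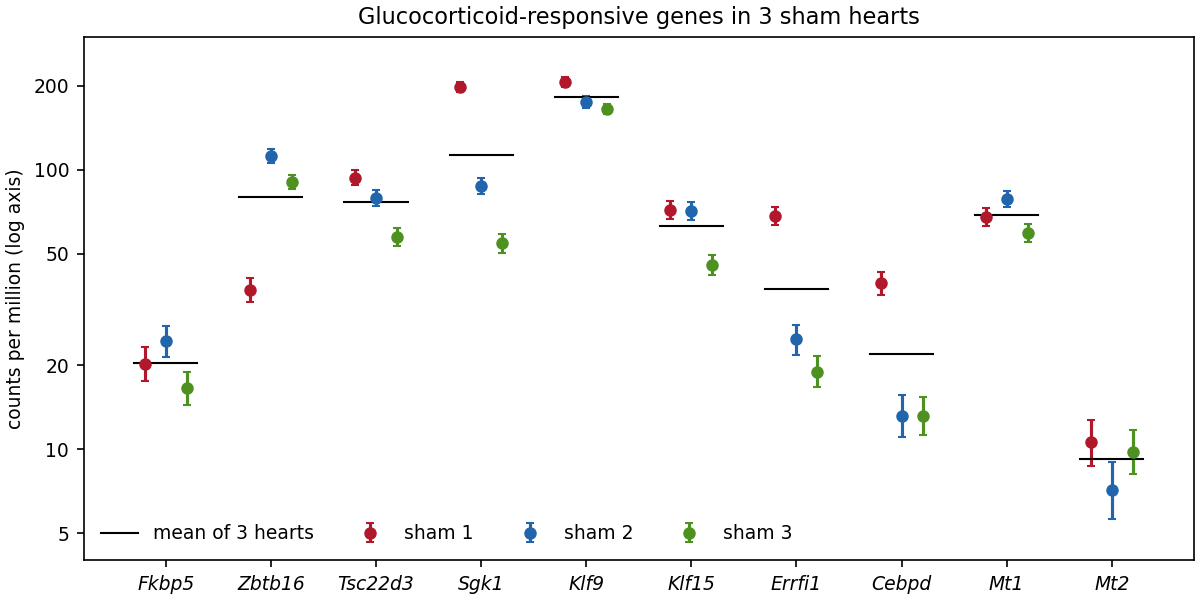
Each point is the level of 1 gene in 1 sham heart in CPM on a log axis, with its exact 95% Poisson counting interval, and the black bars are means of the 3 hearts. Sgk1, Errfi1 and Cebpd stand apart in sham 1 on the high side and Zbtb16 on the low side, while Klf9 stays between 165 and 206 CPM.

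Sgk1 encodes a serum- and glucocorticoid-regulated kinase that acts on ion channels and carriers. It gave 2081, 915 and 691 counts in sham 1, 2 and 3, which is 199, 87.4 and 54.5 CPM. Sham 1 was high and all 3 hearts were apart, by 2.27 times from sham 1 to sham 2 (interval 2.10 to 2.46) and by 1.60 times from sham 2 to sham 3 (1.45 to 1.77). The ratio of the highest to the lowest heart was 3.64 (interval 3.34 to 3.97), which exceeded that of 98.5% of all genes. The mean was 113 ± 75.5 CPM (SD, n = 3) and 70.9 CPM without sham 1.

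Of the 8 genes with a promoter window, Sgk1 was the one whose upstream sequence held a full palindromic glucocorticoid response element. RefSeq promoter windows (GRCm38.p6, another build than the mm9 of the deposited counts) were matched by symbol for 8 of the 10 genes, in 16 windows, and 250 bases before each start were searched on both strands. The element, AGAACA and TGTTCT around any 3 bases, was in 1 of the 16, and in 3 of 32851 windows of all genes (0.00913%). That window precedes 1 of 6 annotated Sgk1 starts, lies at chr10:21993640-21993889 on the plus strand and is shown because of that element, in capitals, which begins 189 bases before the start.

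Sgk1: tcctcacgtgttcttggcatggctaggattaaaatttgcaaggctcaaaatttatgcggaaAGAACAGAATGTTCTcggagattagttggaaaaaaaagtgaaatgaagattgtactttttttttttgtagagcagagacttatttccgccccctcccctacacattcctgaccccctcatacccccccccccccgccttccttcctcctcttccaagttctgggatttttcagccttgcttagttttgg

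The counts are per gene symbol, so they do not say which of these starts was used in the hearts. The shorter core ACANNNTGT, which the full element contains, was in 3 of the 16 windows, 2 of Sgk1 and 1 of Mt1, and in 5.84% of all windows. The single arm AGAACA, also contained in the full element, was in 4 windows, 3 of Sgk1 and 1 of Tsc22d3, and in 16.1% of all. A match is a description of the letters and not a measured site.

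Errfi1, also known as Mig6, encodes an inhibitor of the EGF receptor family that is induced by growth factors and by glucocorticoids. It gave 718, 259 and 240 counts, or 68.5, 24.7 and 18.9 CPM. Its hearts fell in the same order as those of Sgk1, with sham 1 at 2.77 times sham 2 (interval 2.40 to 3.21) and sham 2 at 1.31 times sham 3 (1.09 to 1.56). The whole ratio was 3.62 (3.12 to 4.20). The mean of 37.4 ± 27.1 CPM (SD, n = 3) was 21.8 CPM without sham 1. An antisense transcript is annotated across an exon of Errfi1, and with strandedness not given, its reads could not be told from those of the gene.

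One of the 2 Errfi1 windows, chr4:150854820-150855069 (GRCm38.p6, plus strand), held the cyclic AMP response element TGACGTCA, 51 bases before the start. It was the sole match among the 16 windows, and 1.55% of all windows held one. It is shown, with the element in capitals, because Errfi1 ranked the hearts as Sgk1 did, and the full glucocorticoid response element was in neither Errfi1 window. The TATA box letters TATAAA were found in windows of both genes and in 12.4% of all.

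Errfi1: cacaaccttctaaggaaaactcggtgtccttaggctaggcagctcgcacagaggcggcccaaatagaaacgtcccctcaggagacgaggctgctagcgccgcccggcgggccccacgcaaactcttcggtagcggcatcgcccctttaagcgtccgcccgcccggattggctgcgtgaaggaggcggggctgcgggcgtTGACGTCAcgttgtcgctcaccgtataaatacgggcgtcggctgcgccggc

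Cebpd encodes a C/EBP transcription factor of the acute phase response and of adipocyte differentiation. It gave 411, 138 and 167 counts, or 39.2, 13.2 and 13.2 CPM. Sham 1 was 2.98 times sham 2 (interval 2.45 to 3.64), and sham 2 and sham 3 were not apart, at a ratio of 1.00 (0.792 to 1.26). The mean was 21.9 ± 15.0 CPM (SD, n = 3) and 13.2 CPM without sham 1. The gene Spidr is annotated on the opposite strand across an exon of Cebpd.

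**Figure D2:**
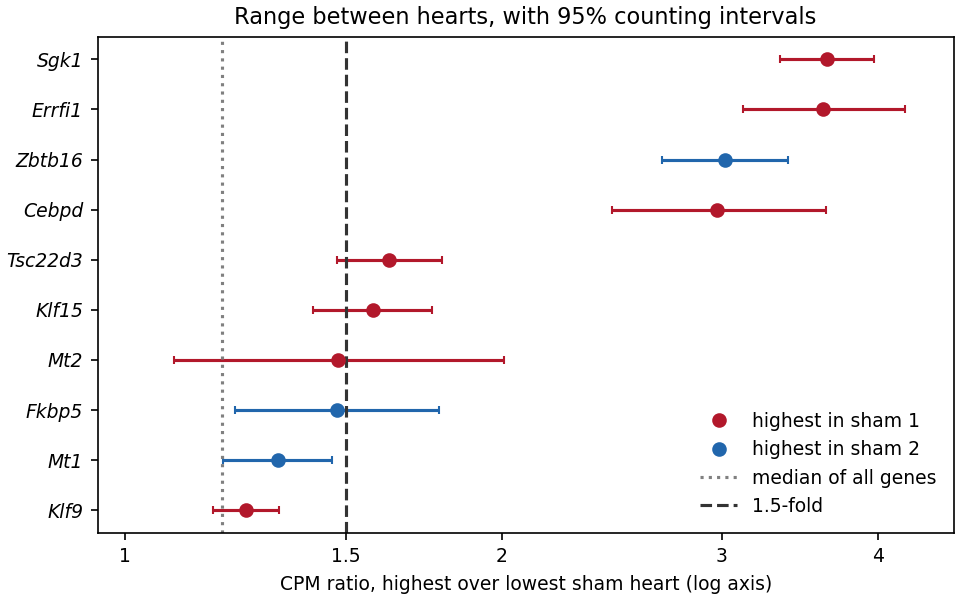
Points give the ratio of the highest to the lowest sham heart in CPM on a log axis, with a 95% counting interval, and the colour names the highest heart. Of the 10 genes, Sgk1, Errfi1, Zbtb16 and Cebpd lie near or above a ratio of 3, Tsc22d3 and Klf15 just past the dashed line at 1.5, and Klf9 lowest at 1.25, close to the median of all genes at 1.19 (dotted line).

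Zbtb16 encodes PLZF, a zinc finger repressor that is strongly induced by glucocorticoids in many cell types. It gave 389, 1173 and 1146 counts, or 37.1, 112 and 90.5 CPM, so that sham 1 was low and the other hearts were higher. Sham 2 exceeded sham 1 by 3.02 times (interval 2.69 to 3.39) and sham 3 by 1.24 times (1.14 to 1.34). The mean was 79.9 ± 38.5 CPM (SD, n = 3). Of the 8864 genes, 10 had sham 1 at most 1 part in 2 of both others. Besides Zbtb16 these were Lgals4, Acot1, Abca4, Irx2, Rtn4r, Irx1, Fbp2, Gbp10 and Gabbr1. Apart from Fbp2, the genes listed beside Zbtb16 were under 10 CPM in sham 1 and passed the filter through the other hearts. Irx1 was at 4.39 and Irx2 at 3.91 CPM in sham 1.

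Likeness of pattern was measured as the root mean square difference of log2 CPM after centring each gene on its mean over the 3 hearts. By this measure the genes nearest to Zbtb16 were Irx1 at 0.14, Irx2 at 0.17 and Fbp2 at 0.20, and no gene lay within 0.1. Irx1 and Irx2 encode Iroquois homeobox factors, with 46, 167 and 132 counts for Irx1 and 41, 165 and 132 for Irx2. Fbp2, the muscle fructose bisphosphatase, gave 169, 375 and 486. Nearest to Cebpd were Csrnp1 at 0.053, Spry4 at 0.088 and Cacna1h at 0.090, with 4 genes within 0.1. Csrnp1, a nuclear protein induced by AXIN1, gave 420, 135 and 156 counts, and Spry4, a feedback inhibitor of growth factor signalling, gave 491, 168 and 229. Likeness over 3 hearts is easily met by genes that vary little. Of the 8864, 149 lay within 0.1 of Fkbp5, 544 within 0.1 of Mt2 and 1596 within 0.1 of Klf9. The nearest genes were E130309D02Rik, Zfhx2 and Sp4 for Fkbp5, Plxnd1, Lrrc8b and Anxa4 for Mt2, and Cmtm8, Kdelr1 and Rps6 for Klf9.

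Fkbp5, which encodes a co-chaperone that lowers the hormone affinity of the glucocorticoid receptor, is among the most used markers of its activity. It gave 212, 255 and 209 counts, or 20.2, 24.3 and 16.5 CPM. The highest heart, sham 2, was 1.48 times the lowest, sham 3 (interval 1.22 to 1.78), so Fkbp5 lay just under the limit of 1.5 and Klf15 at 1.58 just past it. With TMM the ratio of Fkbp5 was 1.59 and with DESeq2 size factors 1.60, past the limit. By column totals sham 1 and sham 2 were at the edge of counting error, with sham 1 at 0.831 of sham 2 (0.689 to 1.00). They lay further apart with TMM, at 19.8 and 25.5, and with size factors, at 19.8 and 25.6, where no interval was computed. The mean was 20.4 ± 3.93 CPM (SD, n = 3). Sgk1, in contrast, was more than 2 times higher in sham 1 than in sham 2.

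Tsc22d3 encodes GILZ, a leucine zipper protein that carries part of the anti-inflammatory action of glucocorticoids. It gave 983, 831 and 731 counts, or 93.8, 79.3 and 57.7 CPM. Sham 1 was 1.18 times sham 2 (interval 1.08 to 1.30) and sham 2 was 1.38 times sham 3 (1.24 to 1.52). Neither counting interval reached equal levels. The mean was 76.9 ± 18.2 CPM (SD, n = 3).

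Klf9 and Klf15 encode Krüppel-like factors. Klf9 takes part in feedback on glucocorticoid transcription and follows the daily rhythm, and Klf15 controls amino acid and lipid use in heart and skeletal muscle. Klf9 gave 2161, 1836 and 2092 counts, or 206, 175 and 165 CPM, with a mean of 182 ± 21.4 CPM (SD, n = 3). Its ratio of 1.25 (interval 1.18 to 1.33) was the lowest of the 10, and sham 2 and sham 3 differed by 1.06 times (0.997 to 1.13). Klf15 gave 754, 747 and 578 counts, or 71.9, 71.3 and 45.6 CPM, with a mean of 63.0 ± 15.0 CPM. Sham 1 and sham 2 were level at a ratio of 1.01 (0.910 to 1.12) and sham 3 was low, at a ratio of 1.58 (1.41 to 1.76).

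Mt1 and Mt2 encode metallothioneins, small cysteine-rich proteins that bind zinc and copper and lie side by side in the genome. Mt1 gave 712, 825 and 754 counts, or 67.9, 78.8 and 59.5 CPM, with a mean of 68.7 ± 9.65 CPM (SD, n = 3). Mt2 gave 111, 75 and 124 counts, or 10.6, 7.16 and 9.79 CPM, with a mean of 9.18 ± 1.79 CPM. The hearts of Mt1 ran from sham 2 down to sham 3 and those of Mt2 from sham 1 down to sham 2, so sham 2 was highest for Mt1 and lowest for Mt2. Mt1 there was 1.16 times its level in sham 1, and Mt2 0.676 times. For Mt2 the whole ratio of 1.48 had an interval of 1.09 to 2.01, on the smallest counts of the 10. No run of 50 bases was shared between their annotated GENCODE transcripts (0 of 554 in Mt2), and an antisense transcript is annotated across an exon of Mt2.

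The Mt2 window, chr8:94172368-94172617 (GRCm38.p6, plus strand), is shown for its metal response elements, the sites through which zinc acts on metallothionein genes. The cores TGCACNC or TGCGCNC, in capitals, were found 3 times, on either strand, beginning 223, 128 and 50 bases before the start. The bases checked after this start matched no GENCODE transcript of Mt2, so the positions refer to the RefSeq window only. All 250 bases shown lie in exons of the antisense gene Gm45774.

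Mt2: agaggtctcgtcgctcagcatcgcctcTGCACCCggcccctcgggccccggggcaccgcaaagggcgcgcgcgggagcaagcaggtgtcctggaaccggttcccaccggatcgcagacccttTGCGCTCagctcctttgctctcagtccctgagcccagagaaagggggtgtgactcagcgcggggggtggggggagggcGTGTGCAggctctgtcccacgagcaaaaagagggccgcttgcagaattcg

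The Mt1 window held 1 such core, 23 bases before its start, and the Klf15 window 1. Of all windows, 21.4% held at least 1, so these letters are common.

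Compared per kilobase of annotated exon (GENCODE M21), the 10 genes ran from Mt1 at 55.2 ± 7.75 CPM per kilobase through Klf9 at 37.8 ± 4.44 to Cebpd at 5.83 ± 4.01 and Fkbp5 at 2.15 ± 0.415 (SD, n = 3). Between them stood Sgk1 at 23.1 ± 15.4, Klf15 at 22.6 ± 5.38, Tsc22d3 at 17.7 ± 4.18, Mt2 at 15.6 ± 3.05, Zbtb16 at 15.1 ± 7.30 and Errfi1 at 10.4 ± 7.57. The ranges over hearts overlapped for each pair of neighbours from Klf9 to Cebpd. Mt1 lay above and Fkbp5 below all their neighbours, with no overlap. The length used joins all exons annotated for a gene, 9468 bases for Fkbp5, 3746 for Cebpd and 1246 for Mt1. Transcripts present in the hearts may be shorter than that, so the order depends on the annotation and is not a ranking of transcript numbers.

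As a set, 5 of the 10 genes had the order sham 1, sham 2, sham 3 from high to low (Tsc22d3, Sgk1, Klf9, Klf15 and Errfi1), against 14.8% of all genes. Another 2, Cebpd and Mt2, ran sham 1, sham 3, sham 2, as did 22.1% of all genes. With TMM or DESeq2 size factors Cebpd joined the first order and Klf15 left it. By column totals both had near ties, at a ratio of sham 1 to sham 2 of 1.01 for Klf15 and of sham 2 to sham 3 of 1.00 for Cebpd. Fkbp5 and Mt1 ran sham 2, sham 1, sham 3 (11.3% of all genes), and Zbtb16 ran sham 2, sham 3, sham 1 (12.1%). No gene of the 10 had either order led by sham 3 (23.5% and 16.1% of all genes). In all, 7 were highest in sham 1, against 36.9% of all genes, and 3 in sham 2, against 23.5%. With TMM or DESeq2 size factors 6 were highest in sham 1, as Klf15 moved to sham 2. Of 45 pairs of the 10 genes, 12 had the same order and 24 the same highest heart. The shares for pairs of all genes were not computed, so these counts are read as neither high nor low. The closest pairs were Fkbp5 with Mt1 at 0.065 log2 units, Tsc22d3 with Klf15 at 0.099 and Sgk1 with Errfi1 at 0.14.

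The median log2 difference over the 10 genes was -0.24 for sham 2 minus sham 1, where that of all genes was -0.061. It was -0.49 for sham 3 minus sham 1 (all genes 0.0091) and -0.39 for sham 3 minus sham 2 (all genes 0.068). Leaving out Sgk1, Errfi1 and Cebpd, a choice made after their values were seen, brought the first of these to -0.013 and the second to -0.29. Since these 3 were left out for their high level in sham 1, the direction of that move was fixed by the choice. The other 7 went both ways, with Zbtb16 at 1.59 and Mt2 at -0.56 for sham 2 minus sham 1.

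**Figure D3:**
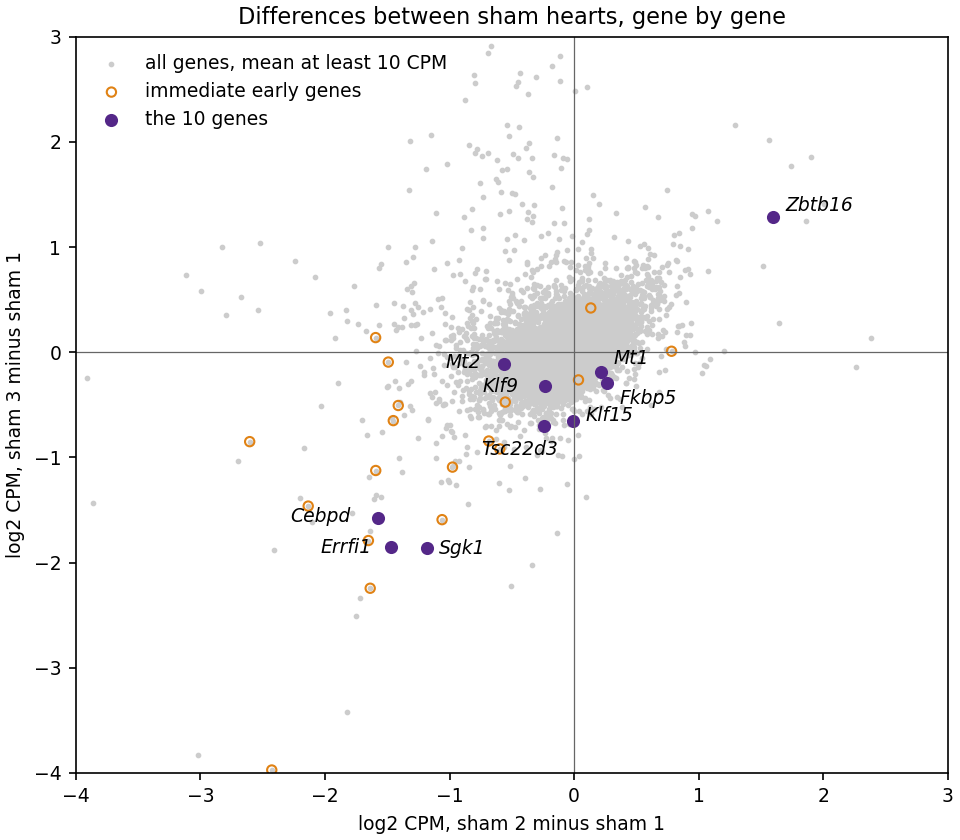
Each grey point is a gene with a sham mean of at least 10 CPM, placed by its log2 CPM difference from sham 1 in sham 2 (horizontal) and in sham 3 (vertical). Purple points are the 10 genes and open circles immediate early genes, and 22 of the 8864 genes lie outside the frame. Sgk1, Errfi1 and Cebpd lie at the lower left among immediate early genes, Zbtb16 at the upper right, and the other 6 near the centre.

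The receptor itself varied little between the same hearts. Nr3c1, the glucocorticoid receptor, was at 104, 98.8 and 105 CPM, a mean of 102 ± 3.10 (SD, n = 3), and 7.30% of all genes had a smaller ratio than its 1.06. Nr3c2, the mineralocorticoid receptor, was at 25.6, 26.2 and 21.9 CPM. Hsd11b1, which regenerates active glucocorticoid inside cells, was at 17.9, 24.8 and 19.5 CPM. Hsd11b2, which inactivates it, gave 0, 0 and 1 counts, and 0 counts allow up to 0.286 CPM. Of 27 receptor, enzyme, chaperone and cofactor genes with at least 10 CPM, Fkbp5 left out, 1 passed a ratio of 1.5, against 13.1% of all genes. Their median ratio of 1.17 was near the 1.19 of all genes. This was the heat shock protein gene Hsp90aa1, at 195, 116 and 157 CPM. The next largest ratios were 1.43 for Dnajb1 and 1.40 for Ptges3, both co-chaperones, and the smallest was 1.04 for Hspa4.

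A second list held 46 other genes known to be induced by glucocorticoids, of which 39 had at least 10 CPM. Of these, 14 passed a ratio of 1.5, against 13.1% of all genes. The heart with the highest level was sham 1 for 19, sham 2 for 9 and sham 3 for 11, against 36.9%, 23.5% and 39.6% of all genes. Their median difference was -0.060 log2 units for sham 2 minus sham 1 (all genes -0.061), -0.11 for sham 3 minus sham 1 (all genes 0.0091) and -0.040 for sham 3 minus sham 2 (all genes 0.068). The largest ratios did not belong to 1 heart. Ddit4, an inhibitor of mTORC1, was at 140, 42.7 and 27.8 CPM, with sham 1 high. Cdkn1a, the cell cycle inhibitor p21, was at 81.7, 18.1 and 43.6 CPM, again with sham 1 high. Angptl4, an inhibitor of lipoprotein lipase, was at 7.16, 5.25 and 25.8 CPM, with sham 3 high. Tgm2, a transglutaminase, varied least at 386, 371 and 386 CPM.

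Immediate early genes respond within minutes to many stimuli and to handling of tissue. Most were highest in sham 1, as Sgk1, Errfi1 and Cebpd were. The list summed to 1640 CPM in sham 1, 706 in sham 2 and 748 in sham 3. Of the 18 with at least 10 CPM, 15 passed a ratio of 1.5, against 13.1% of all genes, and 14 were highest in sham 1, against 36.9%. Sham 2 was lowest for 8 of them, against 45.6%, and sham 3 for 8, against 26.2%. Sgk1 and Errfi1 were lowest in sham 3. Fos was highest in sham 3, at 15.3, 5.06 and 16.8 CPM. Nr4a1, an orphan nuclear receptor, was at 138, 25.6 and 8.76 CPM. Egr1, a zinc finger factor, was at 118, 19.4 and 65.4 CPM, and Klf2 at 197, 63.4 and 41.6. Jun was nearly level at 67.2, 68.8 and 56.0 CPM. Dusp1, which is both an immediate early and a glucocorticoid-induced gene, was at 215, 68.4 and 62.0 CPM. Their part in the levels of Sgk1, Errfi1 and Cebpd was not tested.

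Most atrial cardiomyocyte markers were also high in sham 1. The 8 genes summed to 2975 CPM in sham 1, 451 in sham 2 and 869 in sham 3, with none at 0 in all hearts. Against 36.9% of all genes, 6 of the 8 were highest in sham 1. Among these was Myl7, the atrial light chain, at 497, 1.43 and 81.5 CPM. The other 2 were Kcnk3, a potassium channel gene, at 356, 371 and 336 CPM, and Gja5, which encodes connexin 40, at 12.3, 8.02 and 14.9. Epicardial markers summed to 20.4, 4.68 and 10.9 CPM and Schwann cell markers to 16.3, 6.11 and 6.63. In each list 4 of 4 were highest in sham 1, against 36.9% of all genes, but all had a mean under 10 CPM. Some leads over sham 3 were small, with 14, 0 and 13 counts for Krt19, 62, 47 and 68 for Wt1 and 29, 12 and 27 for S100b. Others were larger, with 92, 1 and 34 for Upk3b and 46, 13 and 19 for Sox10. Sham 1 had the lowest Zbtb16 and the highest Sgk1, Errfi1 and Cebpd. The part of atrial, epicardial and Schwann cells in the levels of these 4 genes was not tested. Scaling to the ventricular markers in place of the column total was an alternative added after the data were seen. With it, 7 of the 10 genes passed a ratio of 1.5, and sham 1 led in 7, sham 2 in 3 and sham 3 in 0. No share of all genes is given for this scaling, so these counts have no background beside them.

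Sham 3, where 7 of the 10 genes were lowest, had the highest interferon and macrophage markers. The 8 interferon response genes summed to 180, 121 and 1056 CPM, and the 9 macrophage and monocyte markers to 529, 417 and 670 CPM. Blood genes summed to 111, 82.7 and 485 CPM. Fibroblast markers summed to 2058, 1043 and 2368 CPM and were lowest in sham 2. Endothelial markers summed to 1893, 1745 and 2055 CPM, and pericyte and smooth muscle markers to 1585, 1644 and 1934. Of the 5 adipocyte markers, which summed to 135, 131 and 140.5 CPM, Adipor2 made up most, at 126, 130 and 134 CPM. The fat cell genes Adipoq, with 30, 2 and 27 counts, Plin1, with 28, 4 and 28, and Cidec, with 36, 1 and 27, were low in sham 2. Lymphocyte markers summed to 4.20, 2.10 and 3.47 CPM and neutrophil markers to 6.11, 6.78 and 2.37. The part of these cells and signals in the lower levels was not tested.

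**Figure D4:**
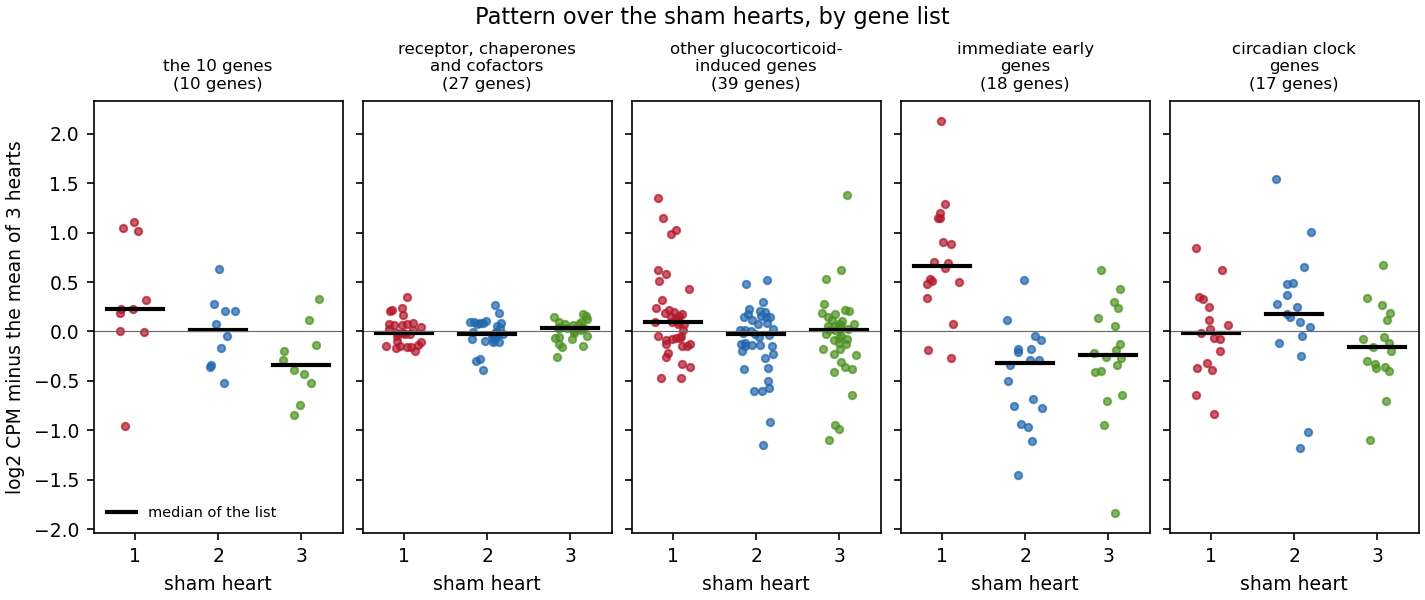
Each point is a gene, as log2 CPM in 1 sham heart minus its mean over the 3 hearts, for the 10 genes and for 4 lists of genes with at least 10 CPM, and black bars are list medians. The 27 receptor and cofactor genes lie close to 0 in each heart, the immediate early genes are spread upward in sham 1, and 7 of the 10 genes are lowest in sham 3, all but Zbtb16, Cebpd and Mt2.

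Clock genes were read because Klf9, Klf15, Per1 and Tsc22d3 are known to follow the daily rhythm. Of 17 with at least 10 CPM, 10 passed a ratio of 1.5, against 13.1% of all genes. The highest level was that of sham 2 for 10 genes, against 23.5% of all genes, of sham 1 for 4 and of sham 3 for 3. Per2 was at 4.96, 25.9 and 5.45 CPM and Arntl, which peaks at the opposite time of day, at 32.0, 7.83 and 22.4, so sham 2 was apart from the others in both. Per1, which glucocorticoids also induce, was at 63.4, 57.8 and 19.3 CPM, low in sham 3 as Klf15 and Tsc22d3 were. Bhlhe41 varied least at 28.3, 32.8 and 28.1 CPM. Times of collection are not given, and the part of the clock in the levels of the 10 genes was not tested.

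Genes linked to single members were read next, against the 13.1% of all genes that passed a ratio of 1.5. Of 14 amino acid and cardiac genes linked to Klf15, 0 passed a ratio of 1.5, with the largest at 1.43 for Got1, then 1.37 for Kcnip2 and 1.32 for Prodh, and the smallest at 1.13 for Aldh4a1. Of these 14, 8 were lowest in sham 1, against 28.2% of all genes, where Klf15 was not low. The other 6 were lowest in sham 3, as Klf15 was, against 26.2% of all genes. Kcnip2, a potassium channel subunit, was among these 6, at 229, 216 and 167 CPM. Each of the lists here is short, and 0 called was not tested against the 13.1%. Of 11 relatives and substrates of Sgk1, 0 passed, with Foxo3 at 1.44, Sgk3 at 1.39, Kcnq1 at 1.23 and Gsk3b at 1.04, and Sgk2 gave 0 counts in each heart. Of 13 metal and oxidant response genes, 0 passed, and Slc30a1, a zinc exporter that the metal response factor induces as it does Mt1, was at 21.9, 22.6 and 21.6 CPM. The largest ratios there were 1.49 for Slc39a14, 1.33 for Hmox1 and 1.33 for Nqo1.

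Of 5 EGF receptor family genes and ligands with at least 10 CPM, 1 passed, Egf at 8.68, 8.59 and 14.0 CPM. Next were Erbb4 at a ratio of 1.47 and Hbegf at 1.35, with Erbb2 lowest at 1.16. For this list and the 2 that follow, the share of all genes that passed was 13.1%. It was 19.2% at 10 to 30 CPM, where these 5 genes lie. Of 7 cytokine and acute phase genes, 3 passed, Junb at 2.66, Serpina3n at 2.17 and Osmr at 1.64, and their highest hearts were sham 1, sham 2 and sham 3, in that order. Il1r1 varied least at 1.15. Among relatives of the 10 genes by family, 4 of 16 passed, of which Klf2, Klf4 and Klf6 are also on the immediate early list. Besides Klf2, Klf4 at a ratio of 3.02 and Klf6 at 1.89 were highest in sham 1, and Klf10 in sham 3, while Cebpz at 1.03 varied least. Cebpb, the nearest relative of Cebpd in the acute phase response, was at 50.7, 39.2 and 35.4 CPM, a ratio of 1.43.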

How the data were processed

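The authors deposited raw counts, whole numbers by gene symbol, in 1 table with a column per heart. Trimmomatic, HISAT2, HTSeq, DESeq and build mm9 are listed in the submitters' processing notes. The sources used here do not give their versions, settings, strandedness or annotation. Columns were matched to samples by title. CPM was computed as the count over the column total, times 1000000. The 3 sham totals make 1 count worth 0.0789 to 0.0955 CPM, which limits precision for low genes. No test was made, since the sham hearts form 1 group; ratios of hearts have exact conditional binomial intervals and levels exact Poisson intervals (scipy 1.17.1), at 95%. The calculation was tested on simulated data. TMM factors came from edgeR 4.0.16 and size factors from DESeq2 1.42.0 in R 4.3.3, as alternatives, with others on thresholds, filters and left-out hearts. The CKD columns were used for the label check only. Exon lengths are from GENCODE M21, and promoter windows from RefSeq.

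The 10 genes, the gene lists and the comparisons were chosen with earlier results of these data known. Named genes were the 10, Nr3c1, Nr3c2, Hsd11b1 and Hsd11b2, the 3 largest ratios and the smallest in each pathway list (at least 10 CPM), and the 3 genes nearest in pattern to each of 5 of the 10. Dusp1, Fos, Klf10, Cebpb, the single marker genes, the genes beside Zbtb16 in sham 1 and those under other observations were named after their values were seen.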

Additional observations from a re-analysis of the deposited data

How the results depend on the processing

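The number of the 10 genes past a ratio of 1.5 was 2 to 6 when 1 heart was left out, lowest without sham 1. It was 7 with TMM and with DESeq2 size factors, where Fkbp5 passed, and 7 when scaled to ventricular markers, 4 at a ratio of 2 and 6 with a pseudocount of 1 CPM. At a ratio of 2 the share of all genes was 4.24%. No such share is given for the left-out hearts, the other scalings or the pseudocount, so those numbers are not set against 13.1%. The background of 13.1% was 26.0% for genes of at least 1 CPM and 32.7% for genes with at least 1 count in every heart. The cause was not tested.

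The median log2 difference of sham 2 minus sham 1 was -0.14 with DESeq2 size factors, -0.38 when scaled to ventricular markers and -0.013 without Sgk1, Errfi1 and Cebpd. That of sham 3 minus sham 1 was -0.68 without Mt1 and Mt2 and -0.29 without Sgk1, Errfi1 and Cebpd. That of sham 3 minus sham 2 was -0.50 with TMM, -0.51 with size factors and -0.24 when scaled to ventricular markers. All kept their sign. Each such difference uses 2 hearts, so leaving out the third gives the same value and was not run. Mean levels moved by less than 1 SD in each setting, which leaving out 1 of 3 hearts cannot exceed. The scaling to ventricular markers and the setting without 3 genes were added after seeing the data.

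No paired analysis was possible because only the sham columns could be read by gene and no test was made. Depth limits Mt2 most, at 75 to 124 counts.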

Other observations

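Genes outside the lists stood apart in sham 1 as Sgk1, Errfi1 and Cebpd did. Of 8864 genes, 38 had sham 1 at least 2 times both other hearts, and 3 of them were among the 10, 6 immediate early, 3 other glucocorticoid-induced and 5 atrial, with Dusp1 counted under both of the middle lists. Another 22 were in no list, and those named here were picked after their values were seen. Apold1, an endothelial early response gene, was at 119, 14.7 and 8.37 CPM. Sik1, a salt-inducible kinase, was at 140, 41.5 and 24.6 CPM, and Depp1, a FOXO target, at 171, 48.2 and 15.9. Gpx3, a secreted glutathione peroxidase, was at 690, 220 and 304 CPM. Mybphl, an atrial myosin-binding protein gene, was at 82.4, 0.286 and 8.21 CPM. Scd1, a fatty acid desaturase, was at 98.3, 18.5 and 26.6 CPM.

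Of the genes low in sham 1 with Zbtb16, Lgals4, a galectin, was at 9.26, 34.7 and 33.5 CPM and Acot1, an acyl-CoA thioesterase, at 4.87, 16.2 and 16.6.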
